A study of Mus musculus with 6 samples.

Results

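Car4 Rgcc capillary endothelial cells are 2298 of the 9629 endothelial cells, and of all 12493 cells kept, in a single-cell RNA-seq study of EGFP-positive cells sorted from mouse hearts. A capillary cell was an endothelial cell with at least 1 unique molecular identifier (UMI, 1 counted RNA molecule) of both Car4 and Rgcc and none of the venous gene Nr2f2 or the tip-cell gene Apln. It also held at most 2 UMIs of the heat-shock genes Hspa1a and Hspa1b together, under 2 of the arterial genes Hey1, Gja4, Sema3g and Stmn2, and under 3 of the interferon-induced genes Ifit1, Ifit2, Ifit3, Isg15 and Rsad2. Endothelial cells held at least 3 UMIs of Pecam1, Cdh5, Egfl7 and Kdr together and at most 1 of Col1a1, Dcn, Upk3b and C1qa. The cells were chosen by the measured UMI counts of the genes just named, so the levels of these genes are given as descriptions, with no test.

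The Dsp_het group held 3 libraries from Wt1CreERT2:Rosa26mTmG:DspW/F mice and the control group 3 libraries from Wt1CreERT2:Rosa26mTmG mice. Every mouse was C57BL/6 and 3 to 6 months old, and carried both the Cre and the reporter. Cre is expressed from Wt1, which is active in the epicardium, the outer cell layer of the heart. A Wt1 UMI was also found in 8.36% of capillary cells and 10.4% of other endothelial cells. The reporter replaces Tomato by GFP for good in a cell where Cre has acted and in its descendants. Whether Cre acted in the capillary cells themselves or in epicardial ancestors was not tested. DspW/F mice have 1 conditional allele of Dsp, which encodes desmoplakin, the protein that ties intermediate filaments to desmosomes. The mice model arrhythmogenic cardiomyopathy, an inherited heart muscle disease. Whether each library is 1 mouse is not stated in the labels, so the p-values cover only library-to-library spread, which may be technical.

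Capillaries are the smallest vessels, where oxygen and fuel leave the blood. In heart muscle, which lives largely on fatty acids, lipoprotein lipase is held on the capillary wall by Gpihbp1, and the freed fatty acids pass through the endothelium with the help of Cd36 and the fatty acid binding proteins Fabp4 and Fabp5. The transcription factors Tcf15 and Meox2 are known drivers of this program in heart endothelium. Car4 is a carbonic anhydrase anchored on the outer face of the capillary membrane, where it speeds the exchange of carbon dioxide and bicarbonate, and Rgcc is a regulator of the cell cycle first described in the complement response.

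Car4 lies on mouse chromosome 11 (GRCm38, chr11:84957786-84966044, plus strand) and Rgcc on chromosome 14 (chr14:79288756-79301645, minus strand). Both are protein-coding genes. Of the 5 capillary markers Car4, Rgcc, Tcf15, Timp4 and Cd300lg, 3 had an entry in the RefSeq promoter table (GRCm38.p6), and none was listed for Tcf15 or Cd300lg. The 250 bases before the start of these 3 genes are shown because the genes mark the cells together. Capitals mark the letters GGAA on either strand, the core that ETS factors, which act in all endothelium, bind.
Car4 promoter, chr11:84957504-84957753, plus strand: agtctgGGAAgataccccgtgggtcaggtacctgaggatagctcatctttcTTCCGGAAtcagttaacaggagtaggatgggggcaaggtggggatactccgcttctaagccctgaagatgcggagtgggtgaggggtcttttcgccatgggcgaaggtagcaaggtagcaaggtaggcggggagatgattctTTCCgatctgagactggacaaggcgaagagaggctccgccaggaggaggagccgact
Rgcc promoter, chr14:79301636-79301885, minus strand: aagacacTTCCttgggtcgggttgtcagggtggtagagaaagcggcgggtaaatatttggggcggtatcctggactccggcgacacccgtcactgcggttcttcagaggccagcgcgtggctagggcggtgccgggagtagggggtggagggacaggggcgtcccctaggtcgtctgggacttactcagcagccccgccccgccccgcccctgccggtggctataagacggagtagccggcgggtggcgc
Timp4 promoter, chr6:115252206-115252455, minus strand: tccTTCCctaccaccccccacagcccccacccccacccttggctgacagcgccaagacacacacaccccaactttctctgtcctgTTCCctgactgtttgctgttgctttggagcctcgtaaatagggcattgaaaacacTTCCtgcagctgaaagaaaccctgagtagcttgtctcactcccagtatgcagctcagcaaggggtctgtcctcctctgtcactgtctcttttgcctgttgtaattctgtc
These windows held 4 matches in Car4, 1 in Rgcc and 3 in Timp4. Of all 32851 windows of this length, 93.4% held at least 1 match. The E-box CANNTG, the letters bound by basic helix-loop-helix factors such as Tcf15, was found once in Timp4 and not in Car4 or Rgcc, against 66.2% of all windows with at least 1 match.

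Among the 9629 endothelial cells, 3885 held both Car4 and Rgcc. The conditions on Nr2f2 and Apln left 3408 of them, that on heat-shock genes 2937, that on arterial genes 2592 and that on interferon genes 2298. Near the edge of the rule, 985 capillary cells had exactly 1 Car4 UMI, 211 had exactly 1 Rgcc UMI and 126 had 1 of each. Just outside it, 1988 endothelial cells met every other condition with Rgcc but no Car4, 183 with Car4 but no Rgcc and 570 with neither. A further 296 cells failed the arterial condition alone, 294 the interferon condition alone and 301 the condition on Nr2f2 and Apln alone. Since a cell without a Car4 UMI may still express the gene, the boundary moves with depth.

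The libraries totalled between 7573157 and 17083660 UMIs over 31055 genes and 18283 barcodes. Among 13183 different barcode sequences, 1689 were present in more than 1 library, and only the occurrence with the most UMIs was kept. Among capillary cells 59 had such a barcode, and the other occurrences held a median of 9.17% of the cell's UMIs. A capillary cell held a median of 3571 UMIs, with a range of 1003 to 22105, and 8 capillary cells had over 20% mitochondrially encoded UMIs. Median UMIs per capillary cell were 2967, 3761 and 4954 in Dsp_het libraries 1, 2 and 3 and 3386, 3534 and 3786 in the control libraries. Dsp itself had 1, 0 and 1 UMIs in the capillary cells of the Dsp_het libraries and 0, 0 and 1 in those of the control libraries. The loss of an allele could not be checked from so few UMIs. Xist, the RNA that silences an X chromosome in females, was at 646 CPM (UMI counts of the summed cells, scaled to a common total) in the capillary cells of Dsp_het library 2 and 462 CPM in those of control library 3, and at 0 to 1.23 CPM in the other libraries.

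Capillary cells were a large part of the endothelium in every library. They made up 20.9%, 37.4% and 20.3% of endothelial cells in the Dsp_het libraries (397, 547 and 149 cells), against 23.1%, 17.1% and 23.1% in the control libraries (466, 214 and 525 cells). The 95% Clopper-Pearson intervals ran from 34.9 to 39.9% in Dsp_het library 2 and, over the other 5 libraries, from 15.1 to 25.0%, and they cover counting error only. Dsp_het library 2 stood apart from the rest, and the other Dsp_het libraries lay within the control range.

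**Figure D1:**
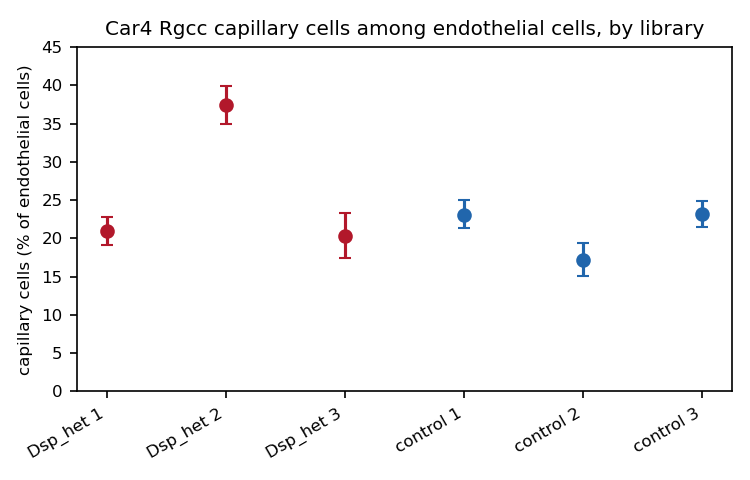
Share of endothelial cells that met the capillary rule (y axis, percent) in each library (x axis), with 95% Clopper-Pearson intervals. Dsp_het library 2 was at 37.4%, and the other 5 libraries lay between 17.1 and 23.1%.

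The mean share was 26.2% ± 9.70 in Dsp_het and 21.1% ± 3.46 in control libraries (SD, n = 3 each), a difference of 5.05 percentage points (two-sided exact permutation test, p = 0.6, where 3 against 3 cannot go below 0.1). Without Dsp_het library 2 the difference was -0.55 points. After each cell was thinned to 2000 UMIs, which removes the difference in depth, the mean share was 23.8% in Dsp_het and 20.4% in control libraries (exact permutation test, p = 0.8). Cells with 2 or more arterial genes made up 17.4% ± 2.59 of endothelial cells in Dsp_het and 18.0% ± 2.18 in control libraries. Cells with an Nr2f2 UMI made up 14.9% ± 5.75 in Dsp_het and 8.83% ± 2.14 in control libraries (exact permutation test, p = 0.2). Here and below, groups of cells with an Nr2f2 or Apln UMI leave out cells with 2 or more arterial genes. The Nr2f2 group also leaves out cells with an Apln UMI. A difference in the share of capillary cells was not detectable with these libraries.

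The label of the cells was checked against the 3 markers that the rule did not use. Tcf15, the transcription factor of fatty acid uptake, averaged 1224 ± 219 CPM in capillary cells and 901.0 ± 169 CPM in the other 7331 endothelial cells (SD, n = 6 libraries each). Timp4, an inhibitor of matrix metalloproteinases, averaged 505 ± 147 CPM in capillary and 347 ± 107 CPM in other endothelial cells. In cells with an Nr2f2 UMI Timp4 averaged 402 ± 145 CPM, within 1 SD of the capillary value. It averaged 294 ± 111 CPM in cells with an Apln UMI and 206 ± 79.7 CPM in cells with 2 or more arterial genes. Cd300lg, a receptor on capillary and venule endothelium also called nepmucin, averaged 937 ± 106 CPM in capillary and 678 ± 92.2 CPM in other endothelial cells. All 3 markers were higher in capillary than in other endothelial cells of the same library in 6 of 6 libraries. In 1074 fibroblasts the 3 markers averaged between 1.71 and 5.57 CPM. Fibroblasts were cells with at least 3 UMIs of Col1a1 and Dcn together and none of Pecam1, Cdh5, Egfl7 or Kdr. That choice left out cells with RNA of these endothelial genes, so it bears on the low levels in fibroblasts. The difference from other endothelium is one of degree, and since expression in these same cells set the groups, it carries no test.

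The share of cells with a UMI gave the same order. After thinning to 2000 UMIs, which left out 219 capillary cells, Tcf15 was found in 84.4% of capillary cells, 73.6% of other endothelial cells and 1.16% of fibroblasts. Timp4 was found in 48.9% of capillary cells, 35.2% of other endothelial cells and 0.579% of fibroblasts. Without thinning, Tcf15 was found in 91.5% of capillary cells, 82.5% of other endothelial cells and 3.91% of fibroblasts, and Timp4 in 62.3%, 46.9% and 1.30%. Median depth before thinning was 3571 UMIs in capillary cells, 3898 in other endothelial cells and 7383 in fibroblasts. Fibroblasts had the lowest shares at the highest depth, but they were chosen to hold no UMI of Pecam1, Cdh5, Egfl7 or Kdr.

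**Figure D2:**
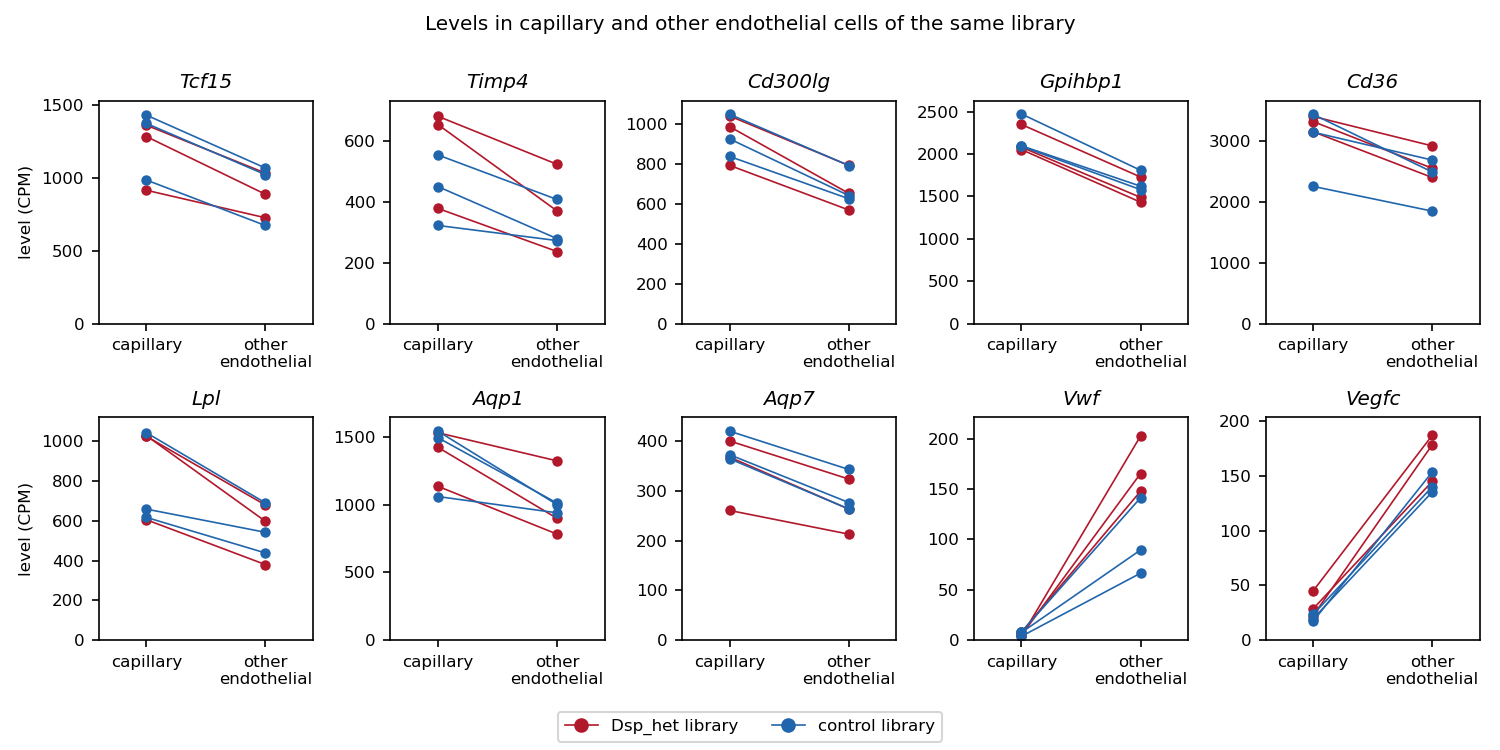
Level (CPM, y axis) of 10 genes in capillary cells (left) and other endothelial cells (right), 1 line for each library, red for Dsp_het and blue for control. Tcf15, Timp4, Cd300lg, Gpihbp1, Cd36, Lpl, Aqp1 and Aqp7 were higher in capillary cells and Vwf and Vegfc lower, in 6 of 6 libraries.

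Genes of fatty acid supply were among those higher in capillary cells. Lpl, lipoprotein lipase, averaged 829.6 ± 223 CPM in capillary and 555 ± 127 CPM in other endothelial cells, a median log2 ratio over libraries of 0.58 (computed on CPM plus 20). Gpihbp1, its anchor on the capillary wall, averaged 2189 ± 176 CPM in capillary and 1609 ± 142 CPM in other endothelial cells. Cd36, the fatty acid translocase, averaged 3116 ± 441 CPM in capillary and 2481 ± 360 CPM in other endothelial cells. Lpl is also made by fibroblasts, where it averaged 744 ± 168 CPM, whereas Gpihbp1 and Cd36 were at 11.1 and 9.72 CPM there.

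The binding proteins and the water and glycerol channels were also higher in capillary cells in 6 of 6 libraries. Fabp4 had a median log2 ratio of 0.28 and Fabp5 of 0.21. The aquaporins had ratios of 0.54 for Aqp1, which passes water, and 0.35 for Aqp7, which also passes glycerol. The exception was Meox2, at 224 ± 22.5 CPM in capillary and 225 ± 26.6 CPM in other endothelial cells, higher in capillary cells in 2 of 6 libraries.

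Of the 23 capillary-list genes that the rule did not use and that reached 50 CPM in either class, 20 were higher in capillary cells in 6 of 6 libraries and none lower, with a median log2 ratio of 0.33. Of all 3371 genes of that level, 12.7% were higher and 12.6% lower in 6 of 6 libraries, with a median ratio of -0.00. Of 21 genes of fatty acid uptake and lipid metabolism, many of them also on the capillary list, 12 were higher and 2 lower, the 2 being Plin3, a lipid droplet protein, and Acadm, an enzyme of mitochondrial fatty acid oxidation. Both genes act inside the cell, as do Fabp4 and Fabp5, which were higher in 6 of 6 libraries. These lists were chosen with earlier results of these data known.

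Junctions and basement membrane followed the same pattern, with 15 of 26 genes higher and 4 lower in 6 of 6 libraries. Jam3, a tight-junction adhesion molecule, averaged 216 ± 11.5 CPM in capillary and 136 ± 13.8 CPM in other endothelial cells. Cldn5, the main claudin of endothelial tight junctions, averaged 599 ± 202 CPM in capillary and 434 ± 121 CPM in other endothelial cells. The 4 that were lower were Vim, the intermediate filament protein vimentin, with a log2 ratio of -0.69, the adherens junction gene Ctnnb1, and the matrix genes Col15a1 and Lamb2.

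Among all genes that the rule did not use, the largest ratio belonged to Gm12002, an antisense RNA to Cobl that is on none of the lists. Gm12002 averaged 322 ± 48.1 CPM in capillary and 203 ± 26.6 CPM in other endothelial cells. Cyp4b1, a cytochrome P450 and one of the 23 capillary genes counted above, averaged 172 ± 44.6 CPM in capillary and 104 ± 28.7 CPM in other endothelial cells. Xdh, xanthine dehydrogenase, averaged 200.2 ± 37.2 CPM in capillary and 137 ± 28.8 CPM in other endothelial cells. Others with a ratio near 0.5 were Cdkn1c, an inhibitor of cyclin-dependent kinases, Hes1, a target of Notch signalling, Chek2, a DNA damage kinase, and Pim3, Sult1a1, Tspan15, Dok4, Klra9, Lnx1 and Ssh2, the last also a capillary-list gene. Cdkn1c was no higher than in cells with 2 or more arterial genes, at 467 ± 73.9 against 486 ± 60.9 CPM. Sult1a1 averaged 190 ± 44.0 CPM in capillary cells and 208 ± 63.9 CPM in cells with an Apln UMI. Cyp4b1 averaged 165 ± 42.0 CPM in cells with an Apln UMI, near its capillary level. The other genes named here had a higher mean in capillary cells than in the arterial, Apln or Nr2f2 groups. The strand used in counting is not given in the sources used here. Reads of Gm12002 and of Cobl therefore cannot be told apart with certainty.

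Genes of larger vessels were low in capillary cells. Vwf, the clotting factor stored by venous and endocardial endothelium, averaged 5.92 ± 2.08 CPM in capillary and 136 ± 50.02 CPM in other endothelial cells. Igfbp5, an insulin-like growth factor binding protein, averaged 6.998 ± 5.09 CPM in capillary and 207 ± 109 CPM in other endothelial cells. Vcam1, an adhesion molecule for leukocytes, averaged 14.3 ± 7.05 CPM in capillary and 113 ± 52.8 CPM in other endothelial cells. These genes were at 459, 545 and 268 CPM in cells with an Nr2f2 UMI, so the rule, which left those cells out, bears directly on the gap.

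Vegfc and Edn1, both on the arterial list, were lower in 6 of 6 libraries. Vegfc, a growth factor of lymphatic and blood vessels, averaged 26.0 ± 10.1 CPM in capillary and 156 ± 21.3 CPM in other endothelial cells. Edn1, endothelin 1, averaged 23.1 ± 9.92 CPM in capillary and 82.6 ± 18.1 CPM in other endothelial cells. In cells with an Nr2f2 UMI Vegfc was at 276 CPM and Edn1 at 63.8 CPM. In cells with 2 or more arterial genes they were at 220 and 213 CPM. The rule left both groups out, so it bears on these gaps, and Vegfc was not particular to arterial cells. Of 16 arterial genes that the rule did not use, 7 were lower in 6 of 6 libraries and 1, the Notch ligand Dll4, was higher, in cells that the rule had limited to at most 1 of 4 other arterial genes. Of 11 venous genes 7 were lower and 2 higher, the 2 being the apelin receptor Aplnr and endomucin, Emcn. Of 16 genes of adhesion and coagulation 11 were lower and 1, Ly6c1, higher.

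**Figure D3:**
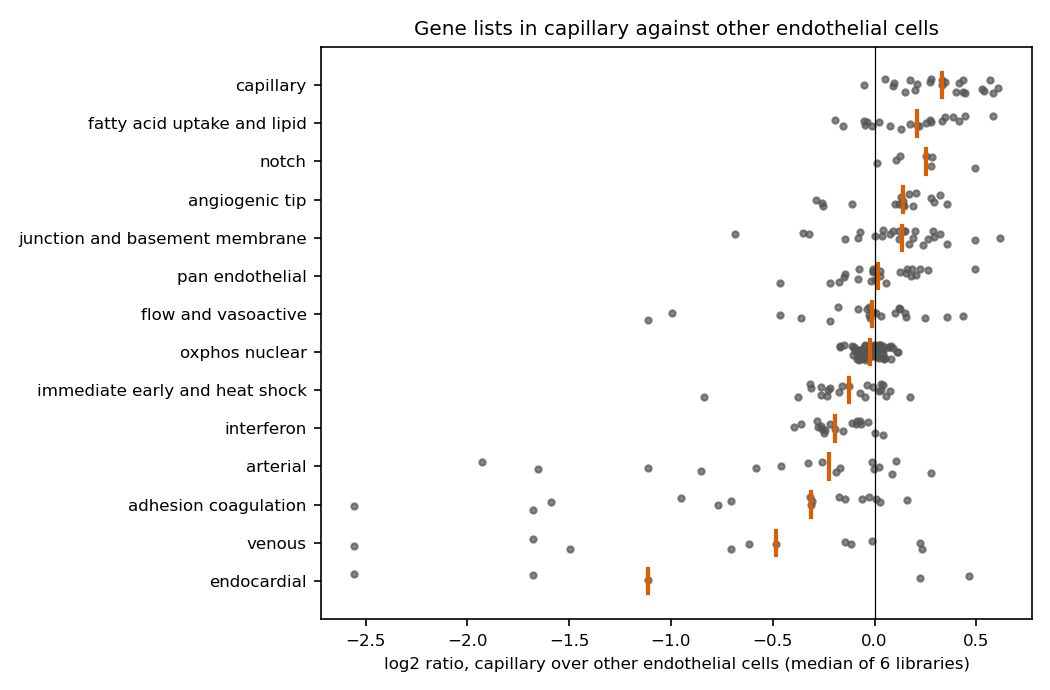
Log2 ratio of capillary over other endothelial cells (x axis, median of 6 libraries), 1 point for each gene of at least 50 CPM that the rule did not use, by gene list (rows), with the list's median as an orange bar. Medians ran from 0.33 for the capillary list to -1.11 for the endocardial list among the 14 lists drawn.

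Set beside single neighbouring groups, the capillary cells were not highest in every capillary gene. Aqp1 averaged 1366 ± 212 CPM in capillary cells, 1164 ± 225 CPM in cells with an Apln UMI, 1299 ± 342 CPM in cells with an Nr2f2 UMI and 262 ± 106 CPM in cells with 2 or more arterial genes. Aqp7 ran another way, at 364 ± 55.2 CPM in capillary cells, 426 ± 49.2 CPM in arterial, 172 ± 29.6 CPM in Apln and 146 ± 34.7 CPM in Nr2f2 cells. Cldn5 was at 599 ± 202 CPM in capillary cells, below the 991 ± 225 CPM of Apln cells and above the 348 ± 104 CPM of arterial and 145 ± 56.6 CPM of Nr2f2 cells.

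Thus Aqp1 was shared with the tip and venous groups, Aqp7 with the arterial group and Cldn5 with the tip group. Tcf15 was at 1224 ± 219 CPM in capillary cells, 1018 ± 132 CPM in arterial, 676 ± 148 CPM in Apln and 780 ± 149 CPM in Nr2f2 cells, where the capillary and arterial values lie within about 1 SD of each other. Btnl9 was at 298 ± 72.0 CPM in capillary, 476 ± 72.0 CPM in arterial, 169 ± 47.1 CPM in Apln and 58.2 ± 16.6 CPM in Nr2f2 cells.

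The capillary cells varied among themselves along the conditions of the rule. The 807 capillary cells with 1 arterial gene had more of the arterial retinoid-binding gene Rbp7 than the 1491 with none, at a mean of 2270 against 1429 CPM, with a median log2 ratio over libraries of 0.65. S100a6, a calcium-binding protein, averaged 389 CPM with 1 arterial gene and 222 CPM with none, and Slc6a6, the taurine transporter, 733 and 453 CPM. Cldn5 ran the other way, at 403 CPM with 1 arterial gene and 709.6 CPM with none, as did Aqp1, at 912 and 1627 CPM. Of 3197 genes compared, 129 were higher and 103 lower in 6 of 6 libraries. In cells with 2 or more arterial genes Rbp7 averaged 3679 CPM, Cldn5 348 CPM and Aqp1 262 CPM, each on the same side. Their median depth was 3824 UMIs, against 3427 UMIs in cells with none.

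Interferon genes marked a further gradient. The 397 capillary cells with 2 of the 5 interferon genes had more Rtp4, an interferon-induced gene, than the 884 with none, at 143 against 62.8 CPM, and more Cd274, the checkpoint ligand PD-L1, at 75.1 against 46.0 CPM. They had less Timp4, at 378 against 621 CPM, less Igfbp3, at 119.6 against 214 CPM, and less Scarb1, the scavenger receptor for high-density lipoprotein, at 83.4 against 121 CPM. These directions held in 6 of 6 libraries, as did those of 77 higher and 109 lower genes of 3197. Median depth was 4073 UMIs in cells with 2 interferon genes and 3214 UMIs in cells with none.

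A last split was by Car4 count. Between the 751 capillary cells with at least 3 Car4 UMIs and the 985 with exactly 1, 60 genes of 3197 were higher and 117 lower in 6 of 6 libraries. In this split and those above, some genes would lie on 1 side in 6 of 6 libraries by chance alone. How many was not estimated, so these counts and the genes named from them are descriptions. Median depth was 4062 UMIs in cells with at least 3 Car4 UMIs and 3268 UMIs in cells with 1. The largest ratio on the higher side was that of Cdkn1c, at 529.9 against 427 CPM, a log2 ratio of 0.36. Cells with 1 Car4 UMI made up 54.2%, 33.3% and 33.6% of capillary cells in the Dsp_het libraries and 48.7%, 43.0% and 41.7% in the control libraries. These ranges overlap between the groups, and depth differed between libraries.

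Few genes differed by genotype in capillary cells. Of 8910 genes tested, 3 passed an adjusted p of 0.05 in edgeR's quasi-likelihood test with Benjamini-Hochberg adjustment, 0.0337% of those tested, and 343, 3.85%, had an unadjusted p under 0.05. Slc26a10 rose in Dsp_het (0.0112% of genes called higher), and Cxcl9 and Wdfy1 fell (0.0224% called lower). In each of the 3 genes the groups did not overlap, as was the case for 8.56% of all genes tested. No gene of the capillary list or of fatty acid uptake was among them.

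Slc26a10, a member of the SLC26 family of anion transporters (chr10:127171393-127180645, minus strand), was at 270.3, 246 and 270.3 normalized CPM in the Dsp_het libraries and 117, 93.8 and 161 in the control libraries. Every Dsp_het library was above every control library. In log2 terms the fold change was 1.05 (SE 0.17, adjusted p = 0.0384 in edgeR's quasi-likelihood test). It overlaps B4galnt1 on the other strand in the annotation, and since the strand used in counting is not given, reads of the 2 genes could not be told apart with certainty. Slc26a10 was also one of the genes that differed within the capillary cells, at 245 CPM in those with 1 arterial gene and 156 CPM in those with none.

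The share of these cells overlapped between the groups. Capillary cells with 1 arterial gene made up 34.3%, 35.8% and 42.3% in the Dsp_het libraries and 35.6%, 28.5% and 35.2% in the control libraries. Among cells with no arterial gene, Slc26a10 was at 251, 196 and 185 CPM in Dsp_het and 102, 76.1 and 123 CPM in control libraries. These cells are part of those that gave the call. What part the cells with 1 arterial gene have in the difference was not tested. Slc26a10 was found in 43.0% of capillary cells, 40.9% of other endothelial cells and 2.70% of fibroblasts.

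Cxcl9, a chemokine induced by interferon gamma (chr5:92321347-92328079, minus strand), was at 23.8, 28.1 and 31.3 normalized CPM in the Dsp_het libraries and 70.0, 86.5 and 52.1 in the control libraries. The highest Dsp_het library was below the lowest control library. In log2 terms the fold change was -1.29 (SE 0.21, adjusted p = 0.0384 in edgeR's quasi-likelihood test). These levels rest on few molecules, 30, 60 and 25 UMIs in Dsp_het and 125, 71 and 104 in control libraries. Its promoter is shown because Cxcl9 is the interferon gene that changed, and capitals mark GGGNNTTCC on either strand, letters close to those bound by NF-kB.
Cxcl9 promoter, RefSeq, GRCm38.p6, chr5:92328080-92328329, minus strand: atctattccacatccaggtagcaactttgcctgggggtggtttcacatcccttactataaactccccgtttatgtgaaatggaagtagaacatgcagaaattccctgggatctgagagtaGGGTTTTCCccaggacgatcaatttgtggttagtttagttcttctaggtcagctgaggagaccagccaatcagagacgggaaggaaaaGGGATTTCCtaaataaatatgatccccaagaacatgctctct
The window held 2 matches, and 4.98% of all windows held at least 1.

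The rule capped interferon genes, which touches this result. With the interferon condition dropped, an alternative chosen after seeing the data, no gene passed, and Cxcl9 had a log2 fold change of -1.14 with an adjusted p of 0.0566 in edgeR's quasi-likelihood test. Among capillary cells with none of the 5 interferon genes, Cxcl9 was at 32.4, 29.8 and 69.3 CPM in the Dsp_het and 76.2, 118 and 28.9 CPM in the control libraries, where the groups overlapped. Among those with 2 of them it was at 15.1, 17.2 and 25.6 CPM in Dsp_het and 81.1, 61.4 and 71.1 CPM in control libraries. Cxcl9 was found in 10.6% of capillary cells, 10.4% of other endothelial cells and 0.279% of fibroblasts.

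Wdfy1, a protein with WD repeats and a FYVE domain that sits on endosomes (chr1:79702262-79776143, minus strand), was at 7.95, 11.2 and 21.3 normalized CPM in the Dsp_het libraries and 31.9, 45.1 and 52.1 in the control libraries. The groups did not overlap, although Dsp_het library 3 came near the lowest control library. In log2 terms the fold change was -1.79 (SE 0.29, adjusted p = 0.0384 in edgeR's quasi-likelihood test). The UMIs behind it were 10, 24 and 17 in Dsp_het and 57, 37 and 104 in control libraries. Wdfy1 overlaps Mrpl44 and Gm10555 on the other strand, so reads of these genes could not be told apart with certainty. No promoter is listed for Wdfy1 in the table used here.

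The calls were close to the threshold. None of the 3 genes passed without Dsp_het library 1, without Dsp_het library 2, without control library 2, or with at least 2 UMIs of both Car4 and Rgcc required. Of the 3, Wdfy1 passed without Dsp_het library 3 and without control library 1, and Cxcl9 and Slc26a10 passed without control library 3. Over 16 alternatives the log2 fold change lay between 0.92 and 1.30 for Slc26a10 (called in 8), between -1.48 and -1.04 for Cxcl9 (called in 8) and between -2.10 and -1.57 for Wdfy1 (called in 10). DESeq2 called the same 3 genes.

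**Figure D4:**
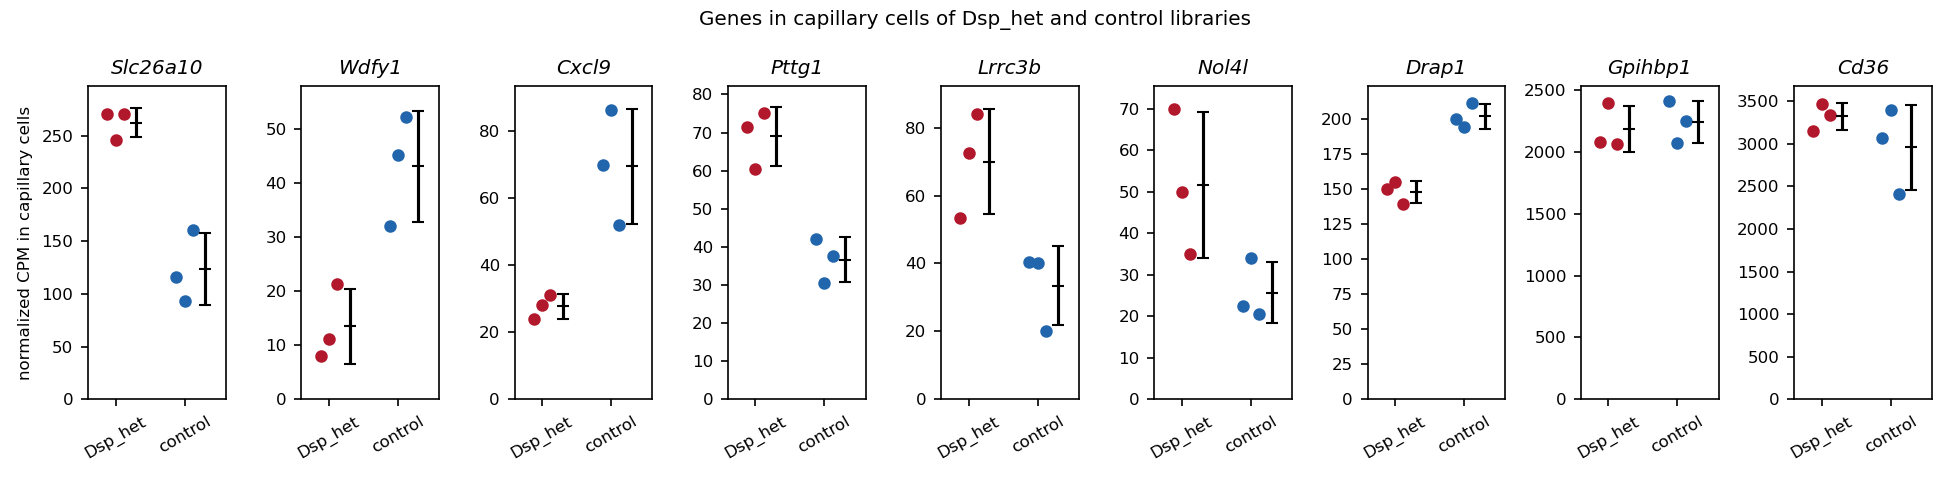
Normalized CPM (y axis) in capillary cells of 9 genes, with 1 point for each library of Dsp_het (red, left) and control (blue, right) and the mean ± SD in black. Slc26a10, Wdfy1 and Cxcl9 passed the test, while Pttg1, Lrrc3b, Nol4l, Drap1, Gpihbp1 and Cd36 did not.

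The genes next in line missed the threshold. Pttg1, securin, which holds sister chromatids together until anaphase, was at 71.6, 60.4 and 75.1 normalized CPM in Dsp_het and 42.0, 30.4 and 37.6 in control libraries (log2 fold change 0.86, SE 0.17, adjusted p = 0.308 in edgeR's quasi-likelihood test). Lrrc3b had a log2 fold change of 1.10 and Nol4l of 1.12, both with an adjusted p of 0.38. On the other side, Pgam5, a mitochondrial phosphatase, had -1.04, Glo1, which clears methylglyoxal, -0.55, and Drap1, a corepressor of transcription, -0.45, with adjusted p-values of 0.759, 1.0 and 1.0. Their groups did not overlap either, which alone says little at a background of 8.56%.

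The capillary genes themselves had no called difference. Tcf15 was at 1284, 1387 and 921 normalized CPM in Dsp_het and 959, 1414 and 1471 in control libraries. Gpihbp1 was at 2082, 2393 and 2066 normalized CPM in Dsp_het and 2408, 2067 and 2245 in control libraries. Cd36 was at 3153, 3469 and 3341 normalized CPM in Dsp_het and 3062, 3396 and 2413 in control libraries. In all 3 genes the groups overlapped, with log2 fold changes of -0.09 (SE 0.18), -0.04 (SE 0.14) and 0.17 (SE 0.15).

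The other named genes had no call either. Timp4 had the highest log2 fold change, 0.35 (SE 0.22), and Fabp5 the lowest, -0.29 (SE 0.16). Cd300lg was at 0.01 (SE 0.15), Fabp4 at -0.05 (SE 0.15), Lpl at 0.20 (SE 0.21), Meox2 at 0.03 (SE 0.14), Aqp1 at -0.01 (SE 0.18) and Aqp7 at -0.17 (SE 0.16). The vascular endothelial growth factor receptor Flt1 was at 0.13 (SE 0.15), the apelin receptor Aplnr at -0.10 (SE 0.16) and the flow-induced factor Klf2 at 0.07 (SE 0.20). The errors leave room for changes of modest size in either direction. Of the genes that chose the cells, Car4 was at 0.07, Rgcc at -0.15 and Kdr at -0.12, given as a description.

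By list, 14 of 23 capillary genes had a log2 fold change above 0 and 9 below, with a median of 0.03 and none called. For fatty acid uptake and lipid metabolism the counts were 14 above and 22 below of 36 tested, with a median of -0.02, and none was called. Over all genes tested the median was 0.00. Arterial genes had 7 above and 10 below (median -0.04), venous genes 9 and 3 (median 0.18), and junction and basement membrane genes 10 and 17 (median -0.04), with none called.

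Of 73 nuclear genes of oxidative phosphorylation, 6 had a log2 fold change above 0 and 67 below, with a median of -0.12, and none was called. Summed over all 74 genes of the list, capillary cells were at 21925, 19865 and 18075 CPM in Dsp_het libraries 1, 2 and 3. The control libraries were at 21623, 20547 and 22064 CPM, so the groups overlapped. In other endothelial cells the sums were 21853.5, 20649 and 18739 CPM in Dsp_het and 21462, 20603 and 21653 CPM in control libraries. In 6 of the 73 the Dsp_het libraries all lay below the control libraries, against 359 of all 8910 genes tested (4.03%). Ndufa5, a subunit of complex I, had the largest fold change of the 6, at 188, 169.5 and 153 normalized CPM in Dsp_het and 216, 203 and 223 in control libraries (log2 fold change -0.33, SE 0.13, adjusted p = 1.0 in edgeR's quasi-likelihood test), and was chosen after its values were seen. The 13 mitochondrially encoded genes had a median of -0.03, with 6 above 0 and 7 below.

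Of 25 interferon genes that the rule did not use, 7 were above 0 and 18 below, with a median of -0.14, and Cxcl9 was the one called. Irf1, a transcription factor of the interferon response, was at 149.5, 147 and 146 normalized CPM in Dsp_het and 202, 178 and 157 in control libraries. The groups did not overlap, it did not pass, and it was named after its values were seen. The 24 genes of flow response and vascular tone had 18 above 0 and 6 below (median 0.12, none called). In 4 of the 24, Nos3, Thbd, Pde2a and Sgk1, the Dsp_het libraries all lay above the control libraries. Over all 8910 genes tested this held for 404 (4.53%). The members and lists were chosen with earlier results known, so nothing particular to a list follows from these counts.

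**Figure D5:**
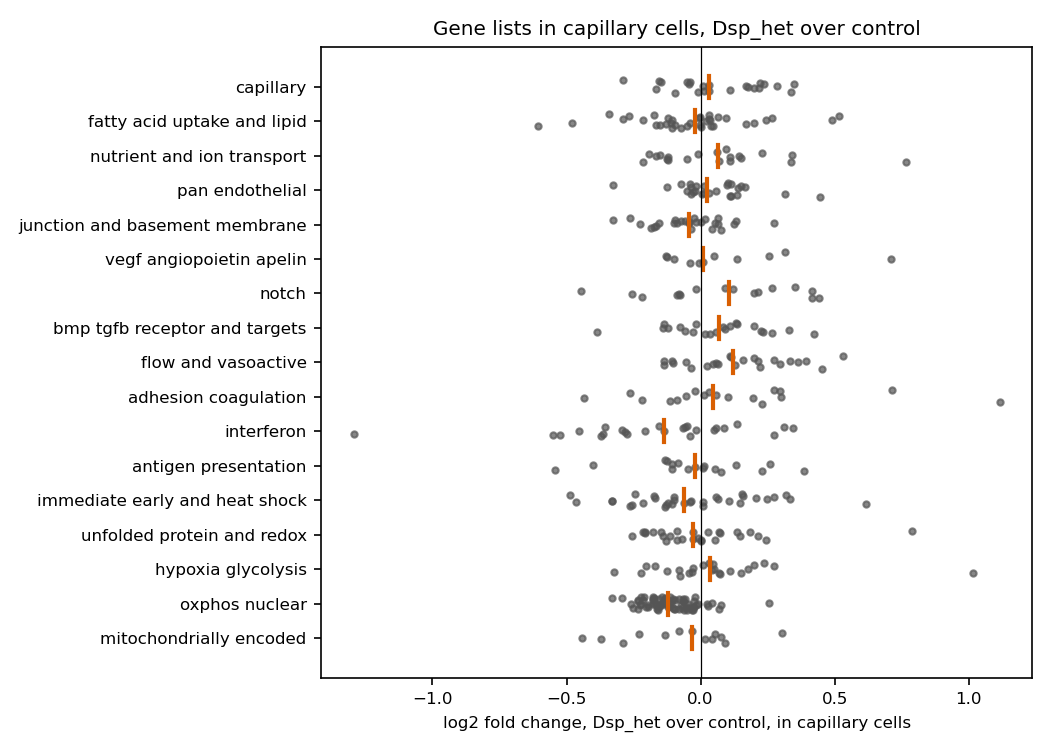
Log2 fold change of Dsp_het over control in capillary cells (x axis), 1 point for each gene that the rule did not use, by gene list (rows), with the list's median as an orange bar. The median was 0.03 for the capillary list, -0.12 for nuclear oxidative phosphorylation and -0.14 for interferon genes, where the point at -1.29 is Cxcl9.

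The same comparison in the other endothelial cells called none of 11026 genes by edgeR (percent called 0.0), with 532 (4.82%) at an unadjusted p under 0.05, while DESeq2 called 26 higher and 2 lower. The groups did not overlap in 9.09% of those genes, 5.23% higher and 3.85% lower in Dsp_het. There Slc26a10 had a log2 fold change of 0.82 (SE 0.17), Cxcl9 of -0.67 (SE 0.32) and Wdfy1 of -1.10 (SE 0.23). The smallest p belonged to Prss23, a serine protease of vein and valve endothelium, at 86.8 ± 16.1 normalized CPM in Dsp_het and 35.6 ± 5.41 in control libraries (adjusted p = 0.0894 in edgeR's quasi-likelihood test). Prss23 averaged 174 ± 65.6 CPM in cells with an Nr2f2 UMI and 224 ± 52.1 CPM in fibroblasts. Cells with an Nr2f2 UMI made up 14.9% of endothelial cells in Dsp_het and 8.83% in control libraries. The part of the mix of cells in the Prss23 difference was not tested. In capillary cells Prss23 had 9, 8 and 1 UMIs in Dsp_het and 2, 1 and 4 in control libraries, too few to be tested.

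Whether the genotype effect differs between capillary and other endothelial cells was tested as an interaction over the 12 sums. It called 3 of 10717 genes (0.028%, with 4.47% at an unadjusted p under 0.05), the haemoglobin genes Hba-a1, Hbb-bs and Hbb-bt, and none of the 3 genes called in capillary cells. Haemoglobin had 33, 8445 and 14 UMIs in the capillary cells of the Dsp_het libraries and 54, 14 and 50 in those of the control libraries, and 1 barcode of Dsp_het library 2 held 6230 of them. Without barcodes of 10 or more haemoglobin UMIs, left out after seeing the data, no gene was called. The difference of the effects was 0.19 (SE 0.13) for Slc26a10, -0.43 (SE 0.28) for Cxcl9 and -0.65 (SE 0.26) for Wdfy1, each with an adjusted p of 0.993 in edgeR's quasi-likelihood test. The changes of these genes are therefore not shown to be particular to capillary cells.

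Markers of other cell types in capillary cells were uneven between libraries. The fibroblast, epicardial and macrophage lists hold Col1a1, Dcn, Upk3b and C1qa, which the rule capped at 1 UMI per cell, so the selection bears on the level of those sums. The 14 pericyte and smooth muscle genes, of which Cnn1 had no UMI, summed to 69.9 to 360.3 CPM in Dsp_het and 91.4 to 253 CPM in control libraries, most of it Rgs5. The 15 cardiomyocyte genes, none at 0, summed to 20.7 to 807 CPM in Dsp_het and 48.3 to 390.4 CPM in control libraries, and 1 cell of Dsp_het library 3 held 520 of that library's 650 UMIs. The 15 epicardial genes, of which Slpi had no UMI, summed to 48.5 to 60.9 CPM in Dsp_het and 35.5 to 49.3 CPM in control libraries, and no cell held 10 or more of their UMIs. Wt1, the gene that drives the Cre, was part of that sum, at 26.8 ± 4.82 CPM in Dsp_het and 26.5 ± 8.57 CPM in control libraries.

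The 9 lymphatic genes summed to 63.4 to 76.3 CPM in Dsp_het and 47.7 to 169 CPM in control libraries, with nearly all of it from Flt4 and Nts, while Prox1, which defines lymphatic endothelium, averaged 0.459 CPM and Reln had no UMI. The 15 fibroblast genes, none at 0, summed to 79.4 to 152 CPM in Dsp_het and 47.7 to 77.6 CPM in control libraries, so the groups did not overlap. The 14 macrophage genes, none at 0, summed to 0.794 to 27.3 CPM in Dsp_het and 22.99 to 25.2 CPM in control libraries. The 16 blood cell genes, 5 of them at 0, summed to 24.8 to 3884 CPM in Dsp_het and 24.6 to 40.2 CPM in control libraries. The part of these cells' RNA in the genotype result was not tested. No capillary cell held 10 or more UMIs of the fibroblast genes, while 20 cells held 1138 of the 2024 UMIs of the cardiomyocyte genes. GFP, the reporter on which cells were sorted, was at 4289, 4086 and 4252 CPM in Dsp_het and 3567, 3731 and 3668 CPM in control libraries, groups that did not overlap (log2 fold change 0.20, SE 0.14, adjusted p = 1.0 in edgeR's quasi-likelihood test). Tomato was at 0 to 23.6 CPM in Dsp_het and 1.23 to 16.8 CPM in control libraries.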

How the data were processed

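The deposited matrix held UMI counts of 18283 barcodes by 31055 genes, pooled over 6 libraries whose suffixes the barcodes carry. The authors' counts are whole numbers and not normalized, GRCm38 and Seurat are named in the submitters' processing notes, while no source used here names the aligner, the counter or the use of strand. Barcodes with under 1000 UMIs were left out and 1 occurrence of each barcode, that with the most UMIs, was kept. No doublet caller was run. Members, lists and tests were chosen with earlier results of these data known.

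Counts of capillary cells, and of other endothelial cells, were summed per library. The sums were tested with edgeR 4.0.16 in R 4.3.3 (TMM scaling, filterByExpr with a minimum count of 10, quasi-likelihood test, Benjamini-Hochberg adjustment, threshold 0.05). The interaction used all 12 sums with the library as a block. Normalized CPM uses TMM library sizes, and CPM the plain sums. Capillary against other endothelial cells was described by the log2 ratio of CPM plus 20 per library, over genes of at least 50 CPM. Shares were compared by exact permutation with scipy 1.17.1. The fits were tested on simulated data.

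Genes were named by rule: in each test up to 12 called genes in each direction, up to 4 called members of each list and, where fewer than 10 passed, the 5 smallest p in each direction; a fixed set of capillary genes; and the 20 largest ratios in each direction against other endothelial cells. Alternatives were DESeq2 1.42.0, other scaling, no filter, a replicate block, leaving out each library and other cell filters. Gene coordinates are from GENCODE M21. A result on 1 gene is not reported here.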

Additional observations from a re-analysis of the deposited data

Results flagged for a closer look

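In 3 haemoglobin genes the genotype effect differed between capillary and other endothelial cells in the interaction test of edgeR's quasi-likelihood fit. The effect in capillary cells minus that in other endothelial cells was 10.69 for Hba-a1, 10.74 for Hbb-bs and 9.13 for Hbb-bt on the log2 scale. In Dsp_het library 2, 1 capillary barcode held 73.8% of the haemoglobin UMIs, and in control library 3, 1 barcode among the other endothelial cells held 11158 of 11334. Without the barcodes of 10 or more haemoglobin UMIs, chosen after seeing the data, the interaction called no gene.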

How the results depend on the processing

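In capillary cells the count of genes called was 1 higher and 2 lower in Dsp_het. Without a filter on low counts it was 28 higher and 10 lower, with at least 2000 UMIs per cell 0 higher, with barcodes found in 1 library 1 lower, and with at least 2 UMIs of Car4 and Rgcc, or with no interferon condition, 0 higher and 0 lower. Leaving out 1 library gave 0 to 1 higher and 0 to 1 lower. The gene called higher was Slc26a10 only without control library 3. Without Dsp_het library 3 or control library 2 it was a different gene. In other endothelial cells DESeq2 called 26 higher and 2 lower, no filter 91 and 17, and leaving out 1 library 0 to 10 and 0 to 1. The interaction called 3 higher and 0 lower, 0 higher with DESeq2 or without haemoglobin barcodes, 10 and 6 with no filter, and 0 to 6 and 0 to 6 with 1 library left out. Same-numbered libraries correlated at 0.0947, -0.0473 and -0.0366, and the other pairs at -0.0773 to 0.1255. With 3 libraries per group, these values cannot show whether the numbers pair the libraries. A replicate block gave 1 higher and 2 lower in capillary cells, 4 higher and 1 lower in other endothelial cells, 0.0043 for Aqp1 and -0.0015 for Cd300lg. The difference in share lay between -0.55 and 8.01 points with 1 library left out. Of 444 alternatives over 29 single-gene results, 379 kept direction and side of the threshold, 33 lost the call, 4 gained it and 28 turned. Over their alternatives Aplnr lay between -0.24 and 0.0784, Aqp1 between -0.18 and 0.11, Cd300lg between -0.0774 and 0.12, Fabp4 between -0.12 and 0.0432, Gpihbp1 between -0.11 and 0.0178, Klf2 between -0.13 and 0.29, Meox2 between -0.0659 and 0.10, Tcf15 between -0.26 and 0.0605 and Wt1 between -0.21 and 0.21, the turns mostly with 1 library left out. Aqp1 was 0.0041 with at most 20% mitochondrial UMIs, Cd300lg -0.0054 with barcodes found in 1 library, Cd300lg -0.0174 and Meox2 -0.0484 with at least 2 UMIs of Car4 and Rgcc, and Hba-a1, at 5.66 with all cells, -0.0450 without haemoglobin barcodes. The cause was not tested. With 104 or fewer UMIs of Wdfy1 and 125 or fewer of Cxcl9 per library, counting error limits both.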

Other observations

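Of 10 cell-cycle genes of at least 50 CPM, 1 was higher and 1 lower in capillary than in other endothelial cells in 6 of 6 libraries. After thinning to 2000 UMIs, Mki67, a marker of dividing cells, was found in 0.144% of capillary cells, 0.519% of other endothelial cells and 0.193% of fibroblasts. Top2a, the topoisomerase of dividing cells, was found in 0.289% of capillary cells, 0.567% of other endothelial cells and 0.0% of fibroblasts. These shares rest on 3 and 6 of 2079 capillary cells and on 2 and 0 of 1036 fibroblasts. Counts this small do not rank capillary cells against fibroblasts. Of 7 Notch genes of at least 50 CPM that the rule did not use, 4 were higher in capillary than in other endothelial cells in 6 of 6 libraries and none lower. Of 19 interferon genes 8 were lower and none higher, where the rule had capped 5 others of that list.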
